A study of Mus musculus with 19 samples.

Results

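The 4 genes Zhx2, Afp, H19 and Gpc3 were followed mouse by mouse in liver RNA-sequencing data from 19 female Balb/c mice. They were chosen by symbol, and chosen on measured values, because their levels in these same mice were already known to differ between ranges of animal number and with lactation. They are 4 of the 51826 gene entries of the deposited table, and all 4 were among the 16230 genes that averaged 0.1 TPM or more over the mice and were tested. TPM counts how many of 1000000 transcripts in a liver sample came from a gene and is corrected for gene length. The study followed the maternal liver through reproduction and compared 7 nulliparous mice, 6 mice at lactation day 10 and 6 mice at involution day 6, the sixth day after weaning. The labels give an age of 12 weeks and no treatment or transgene, and the methods describe frozen liver tissue, with caudate lobes taken for RNA. Each mouse carries an animal number between 1 and 240, and mice are named here by stage (NUL, LAC or ID6) and number. The mice numbered under 200, called lower-numbered here, were 3 nulliparous and 3 lactating mice, and those numbered 200 and above, called higher-numbered, were 4 nulliparous, 3 lactating and all 6 involution mice. Neither the labels nor the methods call these ranges batches. The methods name Charles River Laboratories and The Jackson Laboratory as suppliers, which mouse came from which supplier is not given in the sources used here, and the part of the supplier was not tested.

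Zhx2 encodes a nuclear protein with zinc fingers and homeoboxes that is required in mouse liver to turn off a group of fetal genes after birth. Afp, H19 and Gpc3 are the best known of these genes: they are highly expressed in fetal liver, are silenced soon after birth and return in regenerating liver and in liver tumors. BALB/cJ mice are known to carry an endogenous retroviral insertion in the first intron of Zhx2 that lowers its mRNA in liver, and their adult livers keep raised Afp, H19 and Gpc3, while other BALB/c substrains lack this insertion. This is background and was not tested in these data.

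The 4 genes lie on 4 chromosomes of the GRCm38 genome, according to GENCODE. Zhx2 spans chr15:57694665-57839832 on the plus strand, Afp chr5:90490737-90508907 on the plus strand, H19 chr7:142575529-142578143 on the minus strand and Gpc3 chrX:52272426-52613950 on the minus strand. H19 is a long noncoding RNA and the other 3 genes encode proteins. The RefSeq promoter table for GRCm38.p6, from 250 bases before to 50 bases after the start, held 2 of the 4 genes, and both sequences are shown because these promoters belong to genes whose RNA was highest in the same mice. Capitals mark the motif letters found: in Afp, GTTAAT, an arm of the site of HNF1, at bases -105 to -100, and ATTGG, the reverse strand of the NF-Y box, at bases -98 to -94. In Gpc3, capitals mark CCAAT, the NF-Y box, at bases -166 to -162.
Afp promoter, chr5:90490464-90490763, plus strand: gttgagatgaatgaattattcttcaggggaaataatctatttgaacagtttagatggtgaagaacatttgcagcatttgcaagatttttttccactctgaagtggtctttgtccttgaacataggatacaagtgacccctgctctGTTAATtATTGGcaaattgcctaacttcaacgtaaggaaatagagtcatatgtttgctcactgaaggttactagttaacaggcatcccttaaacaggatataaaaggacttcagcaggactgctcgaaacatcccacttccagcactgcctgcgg
Gpc3 promoter, chrX:52613925-52614224, minus strand: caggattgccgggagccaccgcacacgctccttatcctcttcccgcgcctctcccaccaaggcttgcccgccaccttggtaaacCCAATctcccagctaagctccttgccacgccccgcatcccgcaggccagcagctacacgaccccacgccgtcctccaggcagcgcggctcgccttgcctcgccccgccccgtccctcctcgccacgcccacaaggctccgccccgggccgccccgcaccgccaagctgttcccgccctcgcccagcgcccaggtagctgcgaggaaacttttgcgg
The Afp window held 40.0% G and C and the Gpc3 window 70.7%. Both strands were searched for 5 patterns. CCAAT occurred in 37.4% of the 32851 promoter windows of the table, GTTAAT in 7.10%, TGTTTAC, the letters of a FOXA site, in 3.65%, TTGCGCAA, the letters of a C/EBP site, in 0.183%, and the whole HNF1 site in 0.00913%. The last 3 patterns were not found in either window, which says only that these letters are not there. Zhx2 and H19 are named without a sequence.

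The deposited values summed to 1000000 TPM in each mouse and keep no read depth, so the spread between mice is the only measure of precision. Between 11209 and 11797 genes reached 1 TPM in a mouse. The tissue carried its label: the 6 hepatocyte markers Apoa1, Ttr, Tat, Cps1, Cyp2e1 and Serpina1a summed to between 23440 and 33520 TPM in every mouse. Markers of bile duct cells summed to at most 47.7 TPM and those of adipocytes to at most 29.1 TPM. In none of the 7 comparisons was a gene of the bile duct, adipocyte or stellate and endothelial lists called, with up to 4 of the 6 stellate and endothelial genes at an unadjusted limma p under 0.05. Those 4 were for involution minus lactation, where 4646 of all 16230 genes were at that limit. The 5 skeletal muscle markers Acta1, Ckm, Myh4, Mylpf and Tnnt3 stood apart in a pair of lower-numbered nulliparous mice, with sums of 392 TPM in mouse NUL_1 and 77.6 TPM in mouse NUL_4, against 0.470 to 30.1 TPM in the other mice, and all 5 were called higher in lower-numbered nulliparous mice. Of the 5 pancreatic acinar markers, Ctrb1 and Prss2 were higher in the lower-numbered lactating mice than in the higher-numbered ones, with log2 differences of 2.15 ± 0.61 (SE, limma adjusted p = 0.0299) and 1.08 ± 0.31 (SE, limma adjusted p = 0.0312). Their means in lower-numbered lactating mice, 7.10 ± 8.12 and 1.59 ± 1.80 TPM (SD, n = 3), came with an SD above the mean. Cela1, the most abundant of the 5, went the other way between the ranges in lactating mice, by -0.70 ± 0.19 (SE, limma adjusted p = 0.0256). It fell with lactation, with log2 differences of -2.15 in lower-numbered and -1.36 in higher-numbered mice. Among hepatocyte markers, Ttr was lower by 1.19 and Cyp2e1 higher by 1.29 on the log2 scale in lower-numbered than in higher-numbered lactating mice (limma adjusted p = 8.57e-06 and 7.01e-04). The RNA is from whole tissue, so fewer cells of a type and less RNA per cell cannot be told apart.

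Zhx2, the repressor of the set, separated the ranges of animal number at both stages where both were present. Among nulliparous mice its level was 2.79 TPM in mouse NUL_1, 2.36 TPM in mouse NUL_4 and 2.64 TPM in mouse NUL_13. In the higher-numbered nulliparous mice it was 0.08, 0.10, 0.12 and 0.11 TPM in mice NUL_220, NUL_221, NUL_226 and NUL_227. The lower-numbered mean of 2.60 ± 0.218 TPM (SD, n = 3) was 25.3 times the higher-numbered mean of 0.103 ± 0.0171 TPM (SD, n = 4). At lactation day 10 the lower-numbered mice LAC_36, LAC_102 and LAC_133 had 3.73, 3.14 and 3.48 TPM, and the higher-numbered mice LAC_200, LAC_213 and LAC_240 had 0.13, 0.06 and 0.10 TPM. The means were 3.45 ± 0.296 TPM and 0.0967 ± 0.0351 TPM (SD, n = 3 each), a ratio of 35.7. At involution day 6, where all mice were higher-numbered, the lowest of 6 values was 0.06 TPM, the median 0.115 TPM and the highest 0.270 TPM.

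All 13 higher-numbered mice were thus below all 6 lower-numbered mice, with nothing between 0.270 and 2.36 TPM. On the log2(TPM + 1) scale, which understates differences of genes at low TPM, the ranges differed by 1.70 ± 0.08 (SE) in nulliparous and by 2.02 ± 0.08 (SE) in lactating mice. Stage moved Zhx2 far less than range did. The lactating lower-numbered mice were all above the nulliparous ones, with a mean 1.33 times as high and a log2 difference of 0.31 ± 0.08 (SE). In higher-numbered mice the difference was -0.01 ± 0.08 (SE) and the groups overlapped, at values only a few steps above the last deposited decimal of 0.01 TPM. Pooled over range, the stage means of Zhx2 described no mouse well: 1.17 ± 1.34 TPM in 7 nulliparous and 1.77 ± 1.85 TPM in 6 lactating mice (SD).

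**Figure D1:**
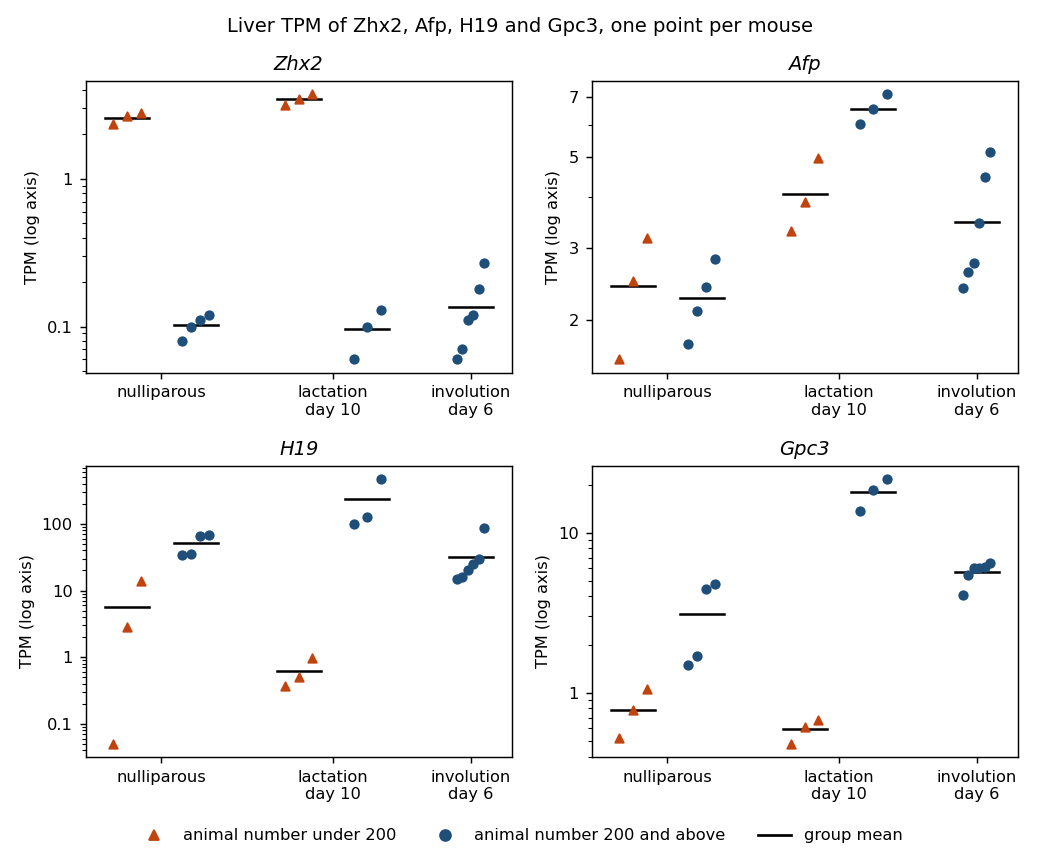
TPM of Zhx2, Afp, H19 and Gpc3 on log axes, with a point for each of 19 mice, triangles for animal numbers under 200, circles for 200 and above, and black lines for group means. Zhx2 lies above 2 TPM in all triangles and below 0.3 TPM in all circles, H19 and Gpc3 are highest in higher-numbered lactating mice, and Afp differs with stage in both ranges.

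Afp encodes alpha-fetoprotein, the main serum protein of the fetus, and sits beside Alb in the albumin gene cluster. Its level in nulliparous mice was alike in both ranges: 2.49, 1.60 and 3.16 TPM in mice NUL_1, NUL_4 and NUL_13, and 2.40, 2.82, 1.74 and 2.10 TPM in mice NUL_220, NUL_221, NUL_226 and NUL_227. The ranges overlapped, and their means of 2.42 ± 0.783 TPM (SD, n = 3) and 2.27 ± 0.458 TPM (SD, n = 4) gave a log2 difference of 0.05 ± 0.20 (SE), against the more than 25-fold gap of Zhx2 in the same mice. At lactation day 10 the lower-numbered mice LAC_36, LAC_102 and LAC_133 had 3.30, 4.98 and 3.89 TPM. The higher-numbered mice LAC_200, LAC_213 and LAC_240 had 6.01, 6.55 and 7.12 TPM, all above every lower-numbered mouse. The lactating means were 4.06 ± 0.852 TPM and 6.56 ± 0.555 TPM (SD, n = 3 each), a log2 difference of -0.59 ± 0.22 (SE) for the lower-numbered minus the higher-numbered mice.

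Afp was the only one of the 4 genes whose lactating mice lay above the nulliparous mice of their range, without overlap, in both ranges. The lactating mean was 1.68 times the nulliparous mean in lower-numbered mice, a log2 difference of 0.58 ± 0.22 (SE). In higher-numbered mice it was 2.90 times the nulliparous mean, a log2 difference of 1.22 ± 0.20 (SE). The difference of these 2 differences was -0.64 ± 0.30 (SE). Involution mice ran from 2.39 to 5.13 TPM with a median of 3.10 TPM, all below the higher-numbered lactating mice and overlapping the nulliparous ones. Afp stayed far below its neighbor Alb, which averaged 71730 TPM over the 19 mice against 3.63 TPM for Afp.

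H19 is an imprinted noncoding RNA transcribed from the maternal chromosome and is the host of a microRNA. On average over the 19 mice it was the most abundant of the 4, at 58.6 TPM, and the most variable. Nulliparous mice NUL_1, NUL_4 and NUL_13 had 14.1, 2.83 and 0.05 TPM. The higher-numbered nulliparous mice NUL_220, NUL_221, NUL_226 and NUL_227 had 34.5, 35.8, 65.4 and 67.8 TPM. Every higher-numbered mouse was above every lower-numbered one, with means of 50.9 ± 18.2 TPM (SD, n = 4) and 5.65 ± 7.42 TPM (SD, n = 3), a ratio of 9.01, or 35.3 without mouse NUL_1. At lactation day 10 mice LAC_36, LAC_102 and LAC_133 had 0.370, 0.50 and 0.980 TPM, and mice LAC_200, LAC_213 and LAC_240 had 125, 99.1 and 475 TPM. The lactating means were 0.617 ± 0.321 TPM and 233 ± 210 TPM (SD, n = 3 each), a ratio of 378, or 182 without mouse LAC_240. On the log2 scale the lower-numbered minus higher-numbered difference was -3.65 ± 0.72 (SE) in nulliparous and -6.83 ± 0.77 (SE) in lactating mice, where it ranked 2 in size among the 16230 genes. Nothing is read from that rank, because H19 was chosen on this difference.

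The spread of H19 among lower-numbered mice moved with the skeletal muscle markers. The 3 nulliparous mice held 14.1, 2.83 and 0.05 TPM of H19 beside muscle marker sums of 392, 77.6 and 1.69 TPM. The 3 lower-numbered lactating mice held 0.370, 0.50 and 0.980 TPM beside sums of 1.16, 12.6 and 30.1 TPM, in the same order of mice. Higher-numbered mice had H19 of 14.9 to 475 TPM with muscle sums of 0.470 to 11.5 TPM. Muscle expresses H19 after birth, and its part in the lower-numbered values was not tested. Without mice NUL_1 and NUL_4, a choice made after seeing the data, the H19 difference between ranges in nulliparous mice was -5.56 on the log2 scale. Mouse NUL_13, at 0.05 TPM, was then the only lower-numbered nulliparous mouse.

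In higher-numbered mice the H19 of lactating mice was above that of all nulliparous ones, 4.58 times as high on average, a log2 difference of 1.88 ± 0.72 (SE). Without lactating mouse LAC_240 the ratio was 2.21 and the log2 difference 1.19. In lower-numbered mice the groups overlapped, with a log2 difference of -1.30 ± 0.77 (SE). That difference turned positive, to 0.60, without mice NUL_1 and NUL_4, and to 0.38 without mice NUL_1, NUL_4, LAC_102 and LAC_133, all of which had muscle sums over 10 TPM. The first setting left NUL_13 as the only lower-numbered nulliparous mouse. The second also left LAC_36 as the only lower-numbered lactating mouse. Involution mice had a lowest value of 14.9 TPM, a median of 22.6 TPM and a highest of 85.7 TPM, each below every higher-numbered lactating mouse.

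Gpc3 encodes glypican 3, a heparan sulfate proteoglycan anchored at the cell surface that restrains growth of the embryo and is a marker of liver cancer. Its level in nulliparous mice NUL_1, NUL_4 and NUL_13 was 0.780, 1.05 and 0.520 TPM. In mice NUL_220, NUL_221, NUL_226 and NUL_227 it was 1.5, 1.7, 4.47 and 4.80 TPM, so these 4 mice fell into a lower and a higher pair. These pairs were the same as for H19. At lactation day 10 mice LAC_36, LAC_102 and LAC_133 had 0.480, 0.680 and 0.610 TPM, and mice LAC_200, LAC_213 and LAC_240 had 13.7, 18.6 and 21.7 TPM. The ranges did not overlap at either stage, and the gap was wider in lactation. The higher-numbered mean was 3.98 times the lower-numbered one in nulliparous mice, at 3.12 ± 1.76 TPM (SD, n = 4) against 0.783 ± 0.265 TPM (SD, n = 3), and 30.5 times in lactating mice, at 18 ± 4.08 TPM against 0.590 ± 0.102 TPM (SD, n = 3 each). The log2 differences, lower-numbered minus higher-numbered, were -1.11 ± 0.25 (SE) and -3.56 ± 0.27 (SE).

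With lactation Gpc3 was 5.78 times as high in higher-numbered mice, a log2 difference of 2.29 ± 0.25 (SE) with no overlap. In lower-numbered mice the groups overlapped and the log2 difference was -0.16 ± 0.27 (SE). Involution mice ran from 4.06 to 6.48 TPM with a median of 6.03 TPM, below all 3 higher-numbered lactating mice and within or above the span of the nulliparous ones. Gpc3 had the smallest spread of the 3 fetal genes within the involution group, with a coefficient of variation of 15.2%, against 32% for Afp and 84.8% for H19.

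Set side by side, the 4 genes showed 3 arrangements of range and stage. Zhx2 differed with range at both stages and hardly with lactation. H19 and Gpc3 differed with range at both stages in the opposite direction to Zhx2, and in higher-numbered mice they were also higher at lactation day 10. Afp was higher in lactating than in nulliparous mice of both ranges, and the ranges did not overlap in lactating mice and overlapped in nulliparous ones. In lower-numbered mice the Afp difference with lactation was 0.27 without mice NUL_1 and NUL_4 and 0.05 without mice NUL_1, NUL_4, LAC_102 and LAC_133, against 0.58 with all mice. Both settings rest on NUL_13 alone for lower-numbered nulliparous mice, and the second on LAC_36 alone for lower-numbered lactating mice. The difference between the lactation effects of the ranges, lower-numbered minus higher-numbered, was 0.31 ± 0.11 (SE) for Zhx2, -0.64 ± 0.30 (SE) for Afp, -3.18 ± 1.05 (SE) for H19 and -2.45 ± 0.37 (SE) for Gpc3. The H19 value was -1.28 without mice NUL_1 and NUL_4 and -1.5 without mice NUL_1, NUL_4, LAC_102 and LAC_133, again with those single mice. Since the genes were chosen on these differences, the values are a description, and nothing is read from a test of them.

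**Figure D2:**
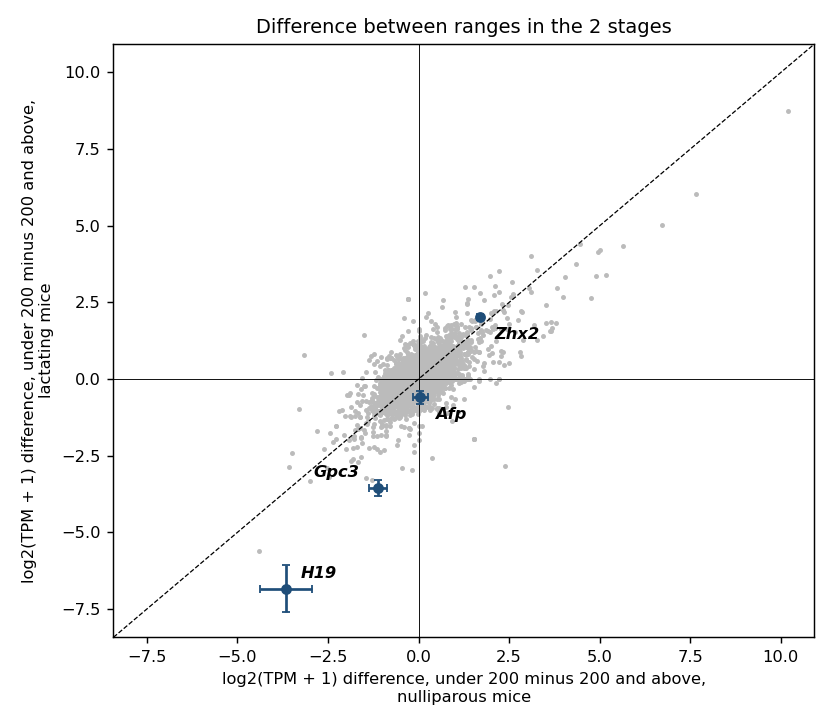
Log2(TPM + 1) difference between mice numbered under 200 and mice numbered 200 and above, in nulliparous mice (horizontal) and in lactating mice (vertical), for 16230 genes (grey) and the 4 genes (blue, with SE bars). The dashed line marks equal differences. Zhx2 lies near it on the positive side, H19 and Gpc3 lie below it on the negative side, and Afp lies near 0 for nulliparous mice.

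Differences between ranges were not particular to these genes. Among nulliparous mice limma called 360 of 16230 genes, 2.22%, meaning an adjusted p under 0.05 with a log2 difference of 1 or more in size, of which 212 were higher in lower-numbered mice, against 257 of 366 after median-ratio scaling. In lactating mice it called 350 genes, 2.16%, of which 220 were higher in lower-numbered mice. Zhx2, H19 and Gpc3 passed the same limits at both stages and Afp at neither, from which nothing is read because the genes were chosen on this contrast. Mice of the ranges did not overlap in 31.9% of all genes in nulliparous and in 29.2% in lactating mice, beside 3 of the 4 and all 4 of the genes. Leukocyte markers also moved with range: of 6, 0 were called, but 4 were lower in lower-numbered nulliparous mice and 1 in lactating mice at an adjusted limma p under 0.05, with 5 and 1 at an unadjusted p under 0.05. The adjusted limit was passed by 3402 and 1807 of all genes at these 2 stages, and the unadjusted limit by 5512 and 4003. The leukocyte markers summed to 147 to 193 TPM in lower-numbered and 228 to 269 TPM in higher-numbered nulliparous mice. Of 3 measured erythroid markers, Alas2 was called 1.53 higher on the log2 scale in lower-numbered nulliparous mice, while the summed levels of that list overlapped there, at 864 to 1214 and 732 to 1488 TPM. The part of these cells in the values of the 4 genes was not tested.

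Fewer genes were called for lactation. They were 193 genes, 1.19%, in lower-numbered mice, with 0 of the 4 among them. At an unadjusted limma p under 0.05 were 2 of the 4, beside 3987 of all 16230 genes. In higher-numbered mice they were 177 genes, 1.09%, among them Afp and Gpc3, with 106 higher in lactation, against 124 of 175 after median-ratio scaling. H19, with a log2 difference between those of Afp and Gpc3 and a larger SE, was not among them. Lactating and nulliparous mice did not overlap in 29.4% of all genes in the lower-numbered range, beside Zhx2 and Afp, and in 19.8% in the higher-numbered range, beside Afp, H19 and Gpc3. The difference between the 2 lactation effects was called for 18 genes, 0.111%, 11 of them positive, against 8 of 17 after median-ratio scaling, and Gpc3 was the only one of the 4 among them. Nothing is read from these counts either, for the same reason. With lactation in higher-numbered mice, 4 of the 6 leukocyte markers were lower at an adjusted limma p under 0.05, 0 of them called and 5 at an unadjusted p under 0.05, with a median log2 difference of -0.57 and summed levels of 136 to 185 TPM in lactating mice. Over all genes, 1265 in the higher and 1537 in the lower range were at that adjusted limit, and 3436 and 3987 at the unadjusted one. In lower-numbered mice 2 of the 6 leukocyte markers were lower, with 0 called, and Alas2 fell by 1.35. The part of these cells was not tested here either. The nulliparous and lactating mice of each range enter several of these comparisons, so the comparisons share mice.

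**Figure D3:**
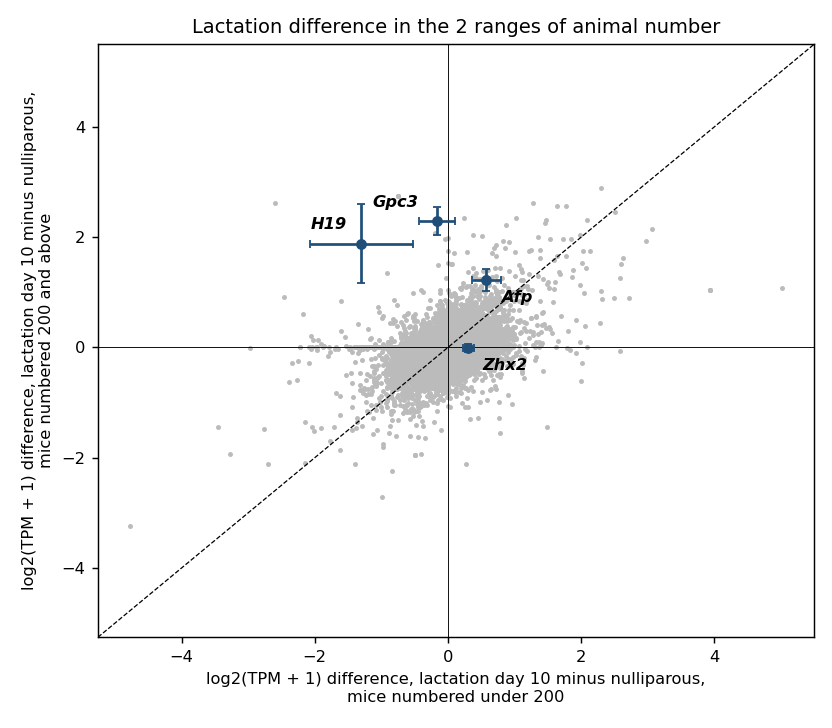
Log2(TPM + 1) difference between lactation day 10 and nulliparous mice, in mice numbered under 200 (horizontal) and in mice numbered 200 and above (vertical), for 16230 genes (grey) and the 4 genes (blue, with SE bars). The dashed line marks equal differences. Gpc3 and H19 lie at 2.29 and 1.88 on the vertical axis and at or below 0 on the horizontal one, Afp is positive on both, and Zhx2 lies near 0 on the vertical axis.

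Involution could be compared with the other stages only among higher-numbered mice. Against lactation, limma called 248 genes, 1.53% of those tested, with H19 and Gpc3 among them and Afp under the limit on size. Of these, 112 were higher at involution, against 68 of 236 after median-ratio scaling and 72 of 231 after quantile normalization. The log2 differences, involution minus lactation, were -0.79 ± 0.19 (SE) for Afp, -2.75 ± 0.67 (SE) for H19 and -1.49 ± 0.23 (SE) for Gpc3. In TPM the lactating means were 1.89, 7.33 and 3.16 times the involution means. The H19 ratio was 3.53 without lactating mouse LAC_240 and 11.1 without involution mouse ID6_216. Zhx2 differed by 0.05 ± 0.07 (SE). The lactating mice are those of the chosen contrasts, so nothing is read from these calls and the values are a description.

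The genes were chosen on their values at all 3 stages, and the nulliparous mice set against involution also enter the contrast of ranges, so this comparison too is a description. Here limma called 31 genes, 0.191% of those tested, and 0 of the 4 genes. At an unadjusted limma p under 0.05 were 2 of the 4, Afp and Gpc3, beside 2009 of all 16230 genes. Gpc3 was 1.83 times as high on average at involution, a log2 difference of 0.80 ± 0.21 (SE), with mice of the groups overlapping. Afp was 1.53 times as high, a log2 difference of 0.43 ± 0.17 (SE). H19 differed by -0.87 ± 0.61 (SE), with a nulliparous mean 1.6 times the involution mean, or 2.42 times without mouse ID6_216, and Zhx2 by 0.04 ± 0.07 (SE). Markers of other cells moved with involution. The erythroid genes Hbb-bs and Hba-a1 fell by 2.20 ± 0.33 (SE, limma adjusted p = 0.00207) and by 2.57 ± 0.32 (SE, limma adjusted p = 5.76e-04) on the log2 scale. Against lactation the leukocyte genes Ptprc, Cd68 and Lyz2 rose by 1.09, 1.07 and 1.33 and all 3 measured erythroid genes fell. The part of these cells in the values of the 4 genes was not tested.

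The 4 genes were also compared with each other over mice. H19 and Gpc3 had a Pearson r of 0.86 on the log2 scale over 19 mice, which share range and stage. It was 0.66 over the 13 higher-numbered mice, 0.62 over the 6 lower-numbered mice and 0.46 over deviations from the 5 group means. Zhx2 had r of -0.85 with H19 and -0.79 with Gpc3 over all mice, but 0.08 and 0.02 over deviations from the 5 group means. Within the 13 higher-numbered mice these r were -0.23 and -0.01, and within the 6 lower-numbered mice, which mix nulliparous and lactating mice, -0.37 and -0.70. Zhx2 and Afp had r of -0.11 over all mice, -0.08 over higher-numbered and 0.69 over lower-numbered mice, and -0.03 over the deviations. Afp and Gpc3 had r of 0.73 over higher-numbered mice and -0.68 over lower-numbered mice, but -0.42 over deviations from the 5 group means. Mouse 240 had the highest Afp, H19 and Gpc3 of all mice at once, with Zhx2 at 0.10 TPM.

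**Figure D4:**
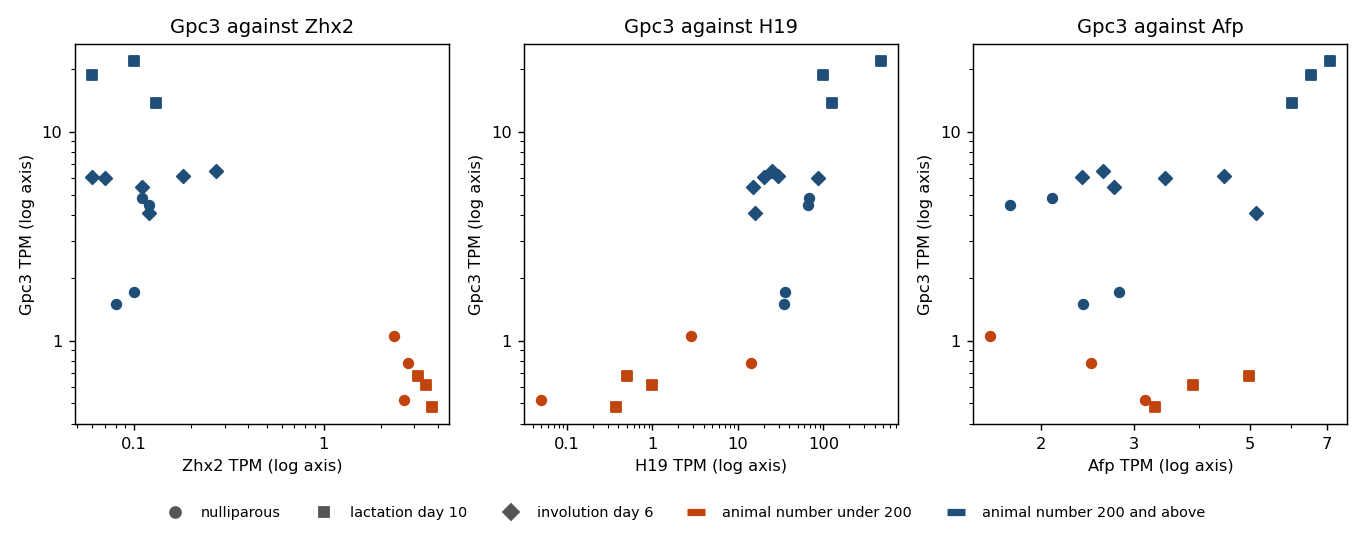
Gpc3 against Zhx2, H19 and Afp in TPM on log axes, with 1 point per mouse, shapes for the 3 stages and colors for the ranges of animal number. Zhx2 splits the mice into 2 clouds, and Gpc3 spans 1.5 to 21.7 TPM in the cloud with low Zhx2 against 0.480 to 1.05 TPM in the other.

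Other genes around Zhx2 were read from lists. Zhx1 and Zhx3, the relatives that pair with Zhx2, and the NF-Y subunits Nfya, Nfyb and Nfyc, which bind the CCAAT box, gave 0 called genes of 5 in every comparison, with at most 3 of 5 at an unadjusted limma p under 0.05. That was for involution minus lactation, where 4646 of all 16230 genes were at the same limit. Zhx1 averaged 10.0 and 11.3 TPM and Zhx3 8.08 and 11.6 TPM in lower- and higher-numbered nulliparous mice. The median log2 difference of the 5 between ranges was -0.36 in nulliparous and -0.03 in lactating mice, beside -0.07 and -0.02 over all genes.

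The genes otherwise linked to Zhx2 in mouse liver did not move in a common direction. Of 6 measured genes, 1 was called higher and 1 lower in lower-numbered nulliparous mice, and 1 higher and 3 lower in lower-numbered lactating mice. Their median log2 difference was -0.27 and -0.64, beside -0.07 and -0.02 over all genes. Elovl3, a fatty acid elongase, averaged 11.1 ± 3.43 TPM in lower-numbered nulliparous mice against 0.0350 ± 0.0332 TPM in higher-numbered ones (SD), a log2 difference of 3.51 ± 0.13 (SE, limma adjusted p = 2.07e-12). In lactating mice it averaged 2.66 ± 0.470 TPM against 0.0167 ± 0.0289 TPM (SD), a log2 difference of 1.84 ± 0.14 (SE, limma adjusted p = 6.59e-08). Elovl3 was on the side of Zhx2 and not of the fetal genes. Its lactation effect differed between the ranges by -1.67 ± 0.19 (SE, limma adjusted p = 3.56e-04), with a fall in lower-numbered mice, while higher-numbered nulliparous and lactating mice held at most 0.08 TPM. Cyp4a12a, at most 0.907 TPM on average in a group, was also on the side of Zhx2. Its log2 differences between ranges were 0.89 in nulliparous and 0.66 in lactating mice (limma adjusted p = 2.76e-04 and 0.00736), under the limit on size.

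Lpl, the lipase that takes up lipoprotein fat and another fetal liver gene, followed stage in both ranges. Its means in lower-numbered mice were 2.97 ± 1.79 TPM in nulliparous and 17.6 ± 3.06 TPM in lactating mice (SD), and in higher-numbered mice 6.07 ± 3.25 and 49.5 ± 20.1 TPM (SD), with 24.9 ± 3.80 TPM at involution (SD). The lactation rises were 2.30 ± 0.35 (SE, limma adjusted p = 7.75e-04) and 2.90 ± 0.33 (SE, limma adjusted p = 6.54e-05), and their difference of -0.59 did not pass the test (limma adjusted p = 0.618). Lpl was lower in lower-numbered lactating mice by 1.39 ± 0.35 on the log2 scale (SE, limma adjusted p = 0.0160), as the 3 fetal genes were in the same mice. Mup3 and Mup20, urinary pheromone carriers, were also lower there, with log2 differences of -2.28 ± 0.22 (SE, limma adjusted p = 1.89e-06) and -1.12 ± 0.24 (SE, limma adjusted p = 0.00445), and the reads of such near-identical family members are hard to assign. Mup3 was lower in lower-numbered nulliparous mice too, by 1.14. Cyp2a4, a steroid hydroxylase, rose with lactation by 1.09 and 1.23 in the lower and the higher range and was not called between ranges.

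Factors that act on the Afp gene were a further list. Of 11 genes, among them Zbtb20, another known repressor of Afp, and the activators Hnf4a, Cebpa and Foxa2, 0 were called between ranges. At an unadjusted limma p under 0.05 were 3 in nulliparous and 4 in lactating mice, beside 5512 and 4003 of all 16230 genes. At an adjusted limma p under 0.05, Foxa3, Hnf4a and Cebpa were lower in lower-numbered nulliparous mice. There, 3402 of all genes differed at that limit, 2305 of them lower. Zbtb20 and Nr5a2 were higher at that limit in lower-numbered lactating mice, beside 1807 of all genes, 862 of them higher. The median log2 difference of the 11 genes with lactation was 0.32 in lower-numbered and -0.02 in higher-numbered mice, beside 0.00 and -0.06 over all genes. Zbtb20 averaged 2.26 and 2.28 TPM in nulliparous and 4.15 and 1.99 TPM in lactating mice of the lower and the higher range. Its log2 difference between ranges in lactating mice was 0.74 ± 0.21 (SE, limma adjusted p = 0.0271). Onecut1 was the 1 gene called for lactation, in lower-numbered mice, with a rise of 1.80 ± 0.55 (SE, limma adjusted p = 0.0476) from values between mice that varied widely.

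Afp's partners in the albumin cluster, Alb, Afm and Gc, gave 0 called genes of 3, with up to 3 of 3 at an unadjusted limma p under 0.05. All 3 were at that limit between ranges in lactating mice, beside 4003 of all 16230 genes. Alb had log2 differences of 0.90 and 0.88 with lactation in the lower and the higher range (limma adjusted p = 0.00402 and 0.00295), under the limit on size and alike in both ranges, where those of Afp were 0.58 and 1.22. Of 40 chromosomal neighbors of the 4 genes, 19 were measured and 2 were called in any comparison, Igf2 and the muscle gene Tnnt3, both beside H19. Up to 9 of the 19 were at an unadjusted limma p under 0.05, between ranges in lactating mice, beside 4003 of all 16230 genes. At an adjusted limma p under 0.05 were up to 5, for involution minus lactation, beside 2480 of all genes. The nearest measured neighbors of Zhx2, Derl1 and Tbc1d31, averaged 53.0 and 3.62 TPM in lower-numbered and 58.1 and 3.02 TPM in higher-numbered nulliparous mice, and no neighbor of Zhx2 was called. Gpc4, the glypican beside Gpc3, averaged 16.9 to 27.4 TPM over the 5 groups, and 0 of 4 other measured glypicans were called in any comparison, with up to 3 of 4 at an unadjusted limma p under 0.05 and a median between -0.18 and 0.23. The 3 were between ranges in nulliparous mice, where 5512 of all 16230 genes were at that limit. Under the limit on size, Gpc1 was higher in lower-numbered mice by 0.48 in nulliparous and 0.89 in lactating mice (limma adjusted p = 0.00916 and 1.54e-04). Gpc4 was lower in lower-numbered nulliparous mice by 0.47 (limma adjusted p = 0.00176), also under that limit.

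Imprinted growth genes related to H19 split between range and stage. Of 9 measured, 1 was called higher and 1 lower in lower-numbered nulliparous mice, 1 higher and 2 lower in lower-numbered lactating mice, and 1 for lactation, in higher-numbered mice. The median log2 difference between ranges was -0.17 in nulliparous and -0.24 in lactating mice, beside -0.07 and -0.02 over all genes. Igf2, the growth factor that shares its imprinted control region and enhancers with H19, had 3.77, 2.74 and 12.3 TPM in lactating mice LAC_200, LAC_213 and LAC_240, against 0.110 to 0.250 TPM in lower-numbered lactating mice and 0.180 to 1.17 TPM in higher-numbered nulliparous ones. Its log2 difference between the ranges in lactating mice was -2.37 ± 0.35 (SE, limma adjusted p = 1.96e-04), and it rose with lactation in higher-numbered mice by 2.07 ± 0.33 (SE, limma adjusted p = 9.53e-04). Between ranges in nulliparous mice the Igf2 difference was -0.11 (limma adjusted p = 0.847), and the difference between its lactation effects was -2.26 (limma adjusted p = 0.0687). Igf2 and H19 were both highest in mouse LAC_240 and, among involution mice, both highest in mouse ID6_216, with 1.87 TPM of Igf2 and 85.7 TPM of H19.

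Meg3, an imprinted noncoding RNA of another cluster, was higher in lower-numbered mice, at 7.46 ± 2.99 against 0.475 ± 0.160 TPM in nulliparous and 6.21 ± 1.53 against 0.333 ± 0.263 TPM in lactating mice (SD). Its log2 differences were 2.47 ± 0.19 (SE, limma adjusted p = 1.20e-07) and 2.43 ± 0.21 (SE, limma adjusted p = 3.71e-07). Grb10, which restrains insulin and growth factor signaling, went the other way, with 1.42 against 7.37 TPM and 1.16 against 7.38 TPM, and log2 differences of -1.79 ± 0.12 (SE, limma adjusted p = 1.03e-08) and -1.96 ± 0.12 (SE, limma adjusted p = 9.59e-09). Neither was called for lactation.

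Further genes of the fetal liver and of liver progenitors did not follow the 3 fetal genes as a group. Of 11 measured, 2 were called lower in lower-numbered nulliparous mice, Prom1 and Cyp3a16, and 1 in lactating mice, Prom1, while 0 were called for lactation in either range, with 4 and 5 at an unadjusted limma p under 0.05. At that limit for lactation were 3987 of all 16230 genes in the lower and 3436 in the higher range. The 11 genes had a median log2 difference with lactation of -0.12 in lower-numbered and -0.28 in higher-numbered mice, beside 0.00 and -0.06 over all genes. Prom1, a membrane protein of progenitor cells, averaged 5.28 and 12.4 TPM in nulliparous and 2.59 and 11.6 TPM in lactating mice of the lower and the higher range. Cell cycle genes moved with stage in the range where H19 and Gpc3 were higher in lactation. Of 13 genes, 4 rose with lactation in higher-numbered mice, Mki67, Cdk1, Ccnb1 and Ccna2, and 5 fell at involution, these 4 and Top2a, while 0 were called for lactation in lower-numbered mice, with 4 at an unadjusted limma p under 0.05. The difference between the 2 lactation effects was called for 0 of 13, with 0 at an unadjusted limma p under 0.05. That limit was passed by 1987 of all genes for this difference and by 3987 for lactation in lower-numbered mice. The median of the 13 with lactation was -0.07 in lower-numbered and 0.32 in higher-numbered mice, beside 0.00 and -0.06 over all genes. Mki67, the proliferation marker, averaged 0.447 and 1.03 TPM in lower-numbered and 0.528 and 2.20 TPM in higher-numbered nulliparous and lactating mice.

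**Figure D5:**
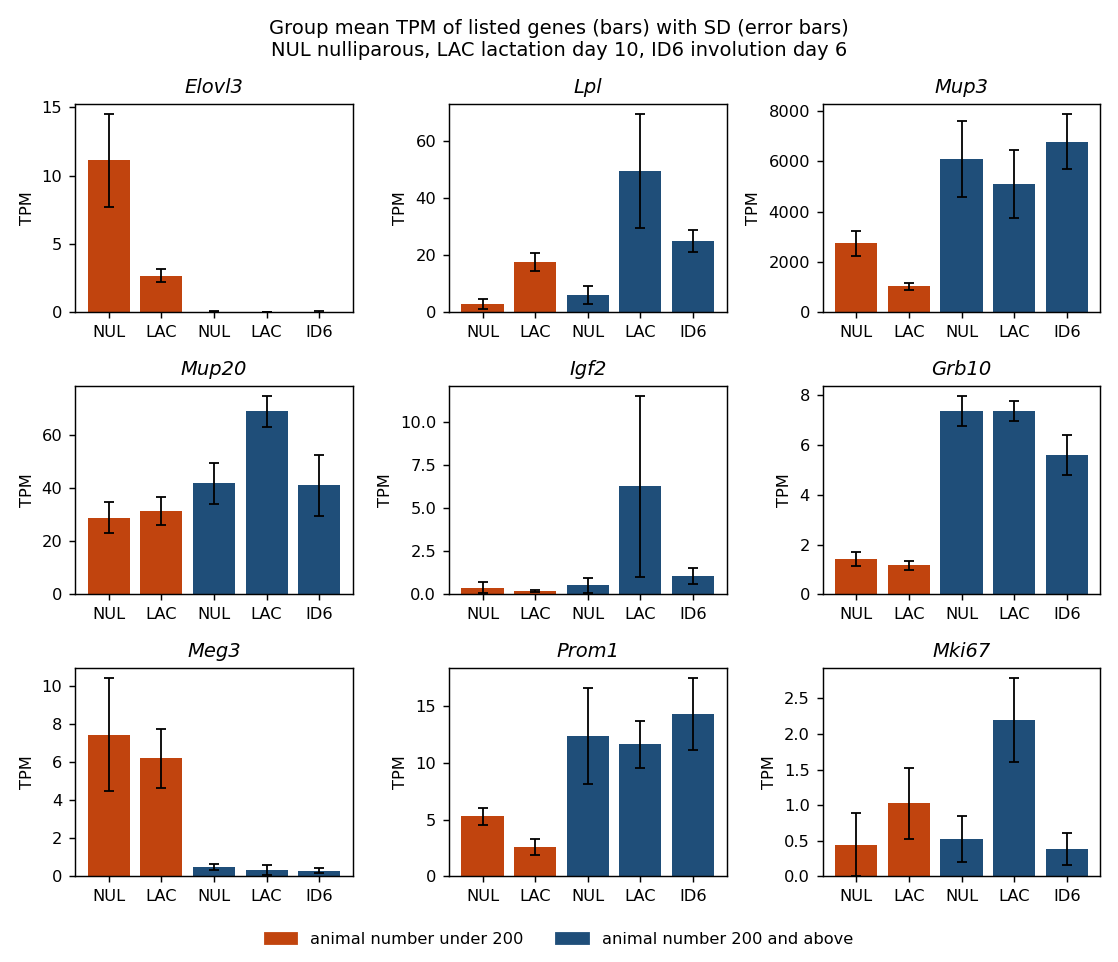
Mean TPM (bars) with SD (error bars) of 9 listed genes in the 5 groups, orange for animal numbers under 200 and blue for 200 and above, on linear axes from 0. Elovl3 and Meg3 are present almost only in lower-numbered mice, Grb10 and Prom1 are higher in higher-numbered mice at both stages that hold both ranges, and Igf2 and Mki67 peak in higher-numbered lactating mice.

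Transcripts that overlap the 4 genes on the opposite strand were checked, since the counting is not stated to use strand and reads of the partners cannot then be told apart. Gm16006, antisense to Zhx2, averaged 1.61 ± 0.706 TPM in the 6 lower-numbered and 0.422 ± 0.262 TPM in the 13 higher-numbered mice (SD). In nulliparous mice the ranges did not overlap, at 1.65 to 2.68 TPM in lower-numbered and 0.05 to 0.56 TPM in higher-numbered mice. In lactating mice they overlapped, at 0.48 to 1.63 and 0.31 to 0.94 TPM. A further antisense gene of Zhx2, 9330154K18Rik, was at most 0.01 TPM in lower-numbered mice and 0.01 to 0.330 TPM in higher-numbered ones, opposite to Zhx2. Gm43449, antisense to Afp, averaged 0.127 TPM over all mice. Overlapping genes of H19 were listed at 0 in all mice and those of Gpc3 averaged at most 0.00316 TPM.

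Among 11605 genes averaging 1 TPM or more, those whose log2 values over 19 mice were most like each of the 4 genes were named as a description. For Zhx2 they were Nlrp12 (r = 0.99), Sfi1, Mup10, Mup2 and Mup14, all near-absent or lower in higher-numbered mice, such as Nlrp12 at 5.15 and 8.42 TPM in lower-numbered nulliparous and lactating mice and at most 0.05 TPM on average elsewhere. The genes most opposite to Zhx2 were D330045A20Rik (r = -0.98), Adprh, Iqca, Grb10 and Hsd3b5. For Afp they were Tspan4 (r = 0.81), Ankrd9, Lrp2bp, Anxa5 and Pnpla3, which were highest in higher-numbered lactating mice. For H19 they were Mrps6 (r = 0.89), Adprh, Bmyc, Igsf8 and Hmg20b, and for Gpc3 Lrpap1 (r = 0.91), Mrps6, Slc39a4, Hsd3b1 and Snx20. Hsd3b1, a steroid dehydrogenase, averaged 0.677 and 2.34 TPM in lower-numbered and 8.22 and 29.2 TPM in higher-numbered nulliparous and lactating mice. It was thus higher on average in lactating mice of both ranges, whereas Gpc3 averaged 0.783 and 0.590 TPM in lower-numbered nulliparous and lactating mice. Mrps6 was on the lists of both H19 and Gpc3, and Adprh on those of H19 and, inversely, of Zhx2.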

How the data were processed

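Liver RNA of 19 mice was measured. The authors enriched poly(A) RNA, sequenced paired-end reads, aligned them to GRCm38, quantified genes with RSEM 1.3.1 and deposited TPM per gene and mouse, to 2 decimals. RSEM shares reads among similar genes by estimation, and TPM keep no depth, so no counting error is given. Stages came from the labels and ranges from the animal numbers. Of 26140 genes above 0 in a mouse, 16230 averaged 0.1 TPM or more and were fitted with limma-trend (limma 3.58.1, R 4.3.3) on log2(TPM + 1), with 1 mean per stage and range, and adjusted by Benjamini-Hochberg per contrast. Genes with an adjusted p under 0.05 and a log2 difference of 1 or more in size were called. The authors' DESeq2 test on counts was not repeated. Tables used Python 3.11.15 with pandas 2.3.3 and numpy 2.4.6. The fit was tested on simulated data. The 4 genes and all gene lists were chosen with earlier results of these data known. Named were the 4 genes, listed genes called in a contrast or else highest in TPM, and the 5 genes most correlated with each of the 4. The p-values set differences between group means against the spread between mice within groups. Alternatives were other pseudocounts, filters, scalings, moderation, designs and each mouse left out, and 2 settings that leave out mice with muscle markers were added after seeing the data.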

Additional observations from a re-analysis of the deposited data

Results flagged for a closer look

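The H19 value of lactating mouse LAC_240, 475 TPM, stood apart from the other 5 lactating mice, with a gap of 0.736 of the whole range, a measure above the limit for 6 samples. That group mixes both ranges of animal number. In the same way involution mouse ID6_216, at 85.7 TPM of H19, lay 0.794 of the range from its nearest neighbor. These were 2 of 16 groups looked at, and chance alone marks about 1 in 20 groups. Mouse LAC_240 also had the highest Igf2, 12.3 TPM, and Lpl, 72.7 TPM, and mouse ID6_216 the highest Igf2 at involution, 1.87 TPM.

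For H19, every higher-numbered lactating mouse lay above the nulliparous mean of its range and every lower-numbered one below, a difference between the lactation effects of -3.18 on the log2 scale. For Gpc3 the same held, with -2.45. Nothing is read from a test of either difference, because both genes were chosen on it. For H19 the lower-numbered nulliparous mean rests on mouse NUL_1, whose muscle marker sum was 392 TPM, and without that mouse the difference was -2.21. For Elovl3, a gene of the list linked to Zhx2, the lactation effects differed by -1.67 (limma adjusted p = 3.56e-04).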

How the results depend on the processing

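No paired analysis was possible because the groups share no animal numbers. The additive fit by its construction forces equal differences on both stages and both ranges. Differences whose sign changed under some setting were those of Zhx2 with stage in higher-numbered mice, of Afp between ranges in nulliparous mice, and of H19 and Gpc3 with lactation in lower-numbered mice, of which that of H19 was -1.30 with all mice. The gaps of Zhx2, H19 and Gpc3 between ranges and the lactation differences of Afp, H19 and Gpc3 in higher-numbered mice kept their sign under every setting run. No scaling moved the median of all genes by over 0.1. TPM keep no depth, so what depth limits is unknown. Where a cause is not given by the construction of a setting, the cause was not tested.

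A smaller pseudocount widens log2 differences of low genes. With 0.1 TPM, in the order range in nulliparous mice, range in lactating mice, lactation in lower-numbered mice, lactation in higher-numbered mice, difference of the lactation effects and involution minus lactation, genes called were 794, 666, 420, 416, 10 and 733, and with 0.5 TPM the last was 374. With 0.1 TPM Zhx2 gave 3.74 and 4.19 between ranges, 0.40 with lactation in lower-numbered mice, 0.45 for the difference of lactation effects and 0.21 for involution minus lactation. H19 gave -4.72 and -8.07 and Gpc3 -1.73 and -4.70 between ranges. Lactation in higher-numbered mice gave 1.51 for Afp and 2.65 for Gpc3, and the difference of lactation effects -2.97 for Gpc3. With 0.5 TPM the range differences were 2.36 and 2.73 for Zhx2 and -4.07 for Gpc3 in lactating mice.

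With no limit on size, the same 6 comparisons gave 3402, 1807, 1537, 1265, 30 and 2480 genes, and involution minus nulliparous 135 higher and 66 lower genes, against 10 and 21. Of those in nulliparous mice 1097 were higher in lower-numbered mice, against 212 of 360 with the limit. Listed genes called were then 27, 24, 17, 19 and, for involution minus lactation, 26, against 12, 12, 9, 9 and 13. With only the mice of a comparison, lactation in lower-numbered mice gave 115 genes, and listed genes called were 6 between ranges in nulliparous mice and 2 for the difference of lactation effects, against 12 and 1. That last count was also 2 after median-ratio scaling and after quantile normalization.

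The additive fit gave 1.85 for Zhx2, -0.25 for Afp, -5.14 for H19 and -2.25 for Gpc3 between ranges, and 0.14, 0.92, 0.40 and 1.15 with lactation, so that H19 reversed in lower-numbered mice. Involution minus lactation was -0.037 for Zhx2 and -0.84 for Gpc3 there.

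Without mice NUL_1 and NUL_4, lactation in lower-numbered mice gave 70 genes, and listed genes called were 6 between ranges in nulliparous mice and 4 for this lactation contrast. That leaves NUL_13 as the only lower-numbered nulliparous mouse. Afp then gave 0.36 between ranges in nulliparous mice, 0.27 with lactation in lower-numbered mice and -0.95 for the difference of lactation effects. H19 gave -5.56, 0.60, a reversal, and -1.28. Without LAC_102 and LAC_133 as well, which leaves 1 mouse in each lower-numbered group, assumed to vary like the other groups, these counts were 73, 6 and 4. The difference of lactation effects was then called for 35 genes and 3 listed genes. Zhx2 gave 2.11 between ranges in lactating mice. Afp gave 0.36, 0.048 and -1.17, and H19 -5.56, 0.38, also a reversal, and -1.5.

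Leaving out each mouse in turn gave 11 to 33 genes for the difference of lactation effects, with the lowest count without NUL_1 and the highest without NUL_13. Listed genes called ranged from 7 to 13 between ranges in nulliparous mice, lowest without NUL_1 and also low without NUL_4. They ranged from 5 to 15 for lactation in lower-numbered mice, lowest without NUL_1 and highest without NUL_13. For the difference of lactation effects they ranged from 1 to 4, above 1 without NUL_13, LAC_102, LAC_213, ID6_216 or ID6_232.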
